A study of Cucumis melo with 4 samples.

Results

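The melon transcription factor CmNOR had 210 of its 5493 listed binding peaks classed by the authors as lying in 3′ untranslated regions (3′ UTRs) or in the flank just past a gene, or 3.82% (95% exact Clopper-Pearson interval 3.33 to 4.36). The share counts a label and not all peaks past gene ends. In other classes, 406 peaks had their centre within 3 kb past the end of the assigned gene. By peak edge, 95 peaks in the same flank of plus-strand genes were classed distal intergenic. The 210 were taken by the location class, which reads 3′ UTR for 41 of them and Downstream for 169. The Downstream class is split into 44 peaks under 1 kb from a gene, 57 at 1 to 2 kb and 68 at 2 to 3 kb. Binding was mapped by DAP-seq, in which a bacterially made protein is mixed with fragments of purified genomic DNA and the retained fragments are sequenced. In 2 libraries the bait was CmNOR joined to the MBP-His tag (MBP-His-CmNOR, maltose-binding protein with a histidine tag), and in 2 negative controls it was MBP-His alone. All 4 baits were made in E. coli and met genomic DNA of melon (Cucumis melo), whose cultivar and tissue the labels do not give. The controls were grouped by their protein label, MBP-His, although their source label also names CmNOR. The deposited values are 1 combined peak list with no read count, enrichment or p-value and no column per library. Depth is therefore unknown, and neither CmNOR against the tag nor one repeat against the other was compared. Intervals and tests below cover the counting of peaks, which are not replicate samples. Positions are as listed by the authors, on a build that the sources used here do not name. No genome sequence was used, so no peak sequence is shown.

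CmNOR belongs to the NAC family of plant transcription factors, which bind DNA through a conserved domain at the amino end of the protein. Its name comes from the tomato gene NON-RIPENING, which is required for normal fruit ripening. A 3′ UTR is the transcribed stretch after the stop codon, and it ends where the messenger RNA is cleaved and polyadenylated. Most study of transcription factors looks at promoters, before the gene start. DAP-seq uses DNA without chromatin, so a sequence past a gene end is as accessible to the protein as one before its start.

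Most Downstream peaks were assigned to genes on the minus strand of the chromosome. Of the 169, the assigned gene was on the minus strand for 146, or 86.4% (80.3 to 91.2), and on the plus strand for 23. Among the 5283 peaks of the other classes 2560 had a minus-strand gene, or 48.5% (47.1 to 49.8). The odds ratio was 6.75 (Fisher's exact test, two-sided, p = 4.13e-24, adjusted p = 6.19e-24 over 3 strand comparisons). The 3′ UTR class leaned the other way, with 10 minus-strand genes among 41, or 24.4% (12.4 to 40.3), and an odds ratio of 0.343 (Fisher's exact test, two-sided, p = 0.00247, adjusted p = 0.00247). The minus-strand share was 51.0% in the promoter class and lay near it in the exon class (50.4%), with lower values in the distal intergenic class (46.8%) and the intron class (42.2%). The strand comparisons were chosen after the table had been seen.

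The same place past a gene end received a different class on each strand. Outside the authors' promoter class, which takes every peak within 3 kb of a gene start, 138 peaks lay wholly past the end of a minus-strand gene with their near edge within 3 kb of it, and 125 did so past a plus-strand gene. On the minus strand 124 of the 138 were classed Downstream, or 89.9% (83.6 to 94.3), and 0 were classed distal intergenic. On the plus strand 14 of the 125 were Downstream, or 11.2% (6.26 to 18.1), and 95 were distal intergenic, or 76.0%. The odds ratio of the Downstream class between strands was 70.2 (Fisher's exact test, two-sided, p = 2.01e-41, adjusted p = 6.02e-41). It was 210 among genes of at least 3 kb and 51.6 when peaks were placed by their centre. The class compared here is part of the label by which the 210 were taken. The comparison was also chosen with the table in view. Its p-value covers the counting of labelled peaks and is not a test of binding. What produced the difference in class was not tested.

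**Figure D1:**
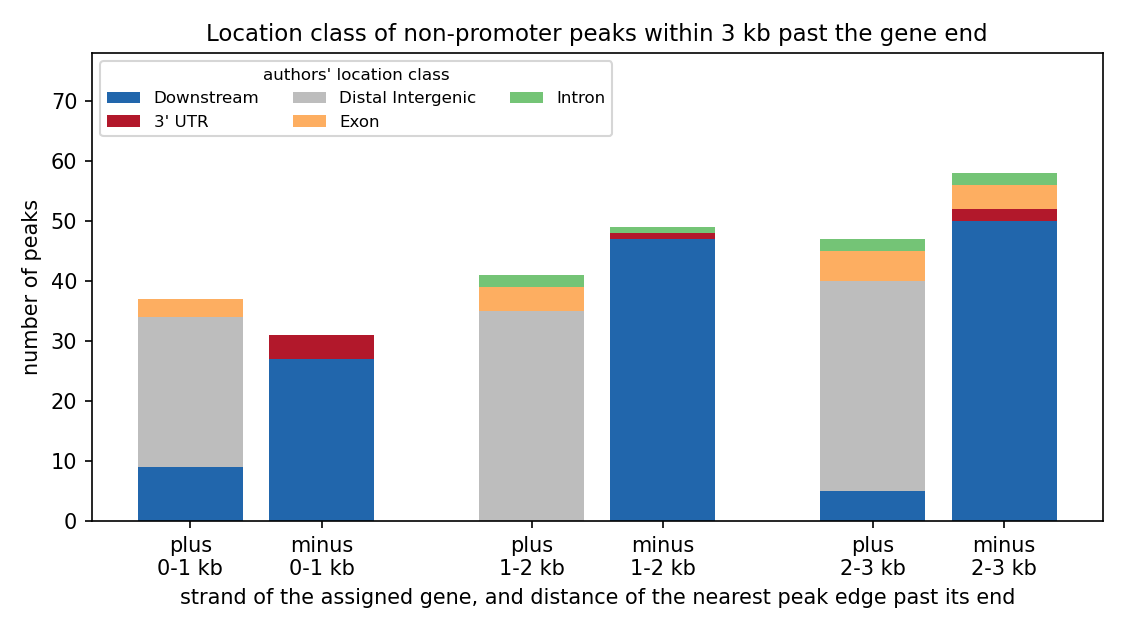
Number of peaks outside the promoter class by distance of the nearest peak edge past the end of the assigned gene (1 kb steps) and strand of that gene, coloured by the authors' location class. At 0 to 1, 1 to 2 and 2 to 3 kb the minus-strand bars hold 27, 47 and 50 Downstream peaks and 0 distal intergenic ones, while the plus-strand bars hold 25, 35 and 35 distal intergenic peaks and 9, 0 and 5 Downstream ones.

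The split ran up to 3 kb, where the Downstream class ends by its labels, so its stop there follows from the class. Among assigned genes of at least 3 kb, whose whole flank lies beyond the promoter zone, the first kb past the end held 21 peaks on the minus strand and 28 on the plus strand. The second kb held 26 and 21, and the third 18 and 20. All but 2 of these minus-strand peaks were Downstream (the 2 were in the 3′ UTR class), against 7, 0 and 2 on the plus strand. Between 3 and 4 kb both strands had 15 distal intergenic peaks, of 16 on the minus strand and 15 on the plus strand.

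The 95 plus-strand distal intergenic peaks with their near edge within 3 kb past a gene end can be set beside the 124 minus-strand Downstream ones. The median gap from gene end to peak edge was 1761 bp for the plus-strand peaks and 1741 bp for the Downstream ones. Median peak width was 423 bp and 412.5 bp, and median gene length 3225 bp and 3027.5 bp. A GO term was attached to the gene of 84 of the 95 peaks (88.4%) and of 108 of the 124 (87.1%). Another peak lay within 5 kb of 8 of the 95 (8.42%) and of 16 of the 124 (12.9%). In the outer 20% of the numbered chromosomes lay 22 of 92 and 34 of 121. These values are given side by side and were not tested.

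Peaks in the 3′ UTR class that touched their assigned gene were on plus-strand genes in 19 of 20 cases. Of the 41 peaks, 15 had their centre inside the assigned gene, all on the plus strand, and 4 more ran over the end of a plus-strand gene. Of the 10 on minus-strand genes, 1 covered the gene's end and the other 9 lay between 290 and 3820 bp beyond it. The remaining 12 lay upstream of a plus-strand gene. Taking all peaks over a gene end outside the promoter class, the 9 on the plus strand comprised 8 of the 3′ UTR class and 1 exon peak, and the 9 on the minus strand 1 of the 3′ UTR class and 8 exon peaks. With the centre in the last 1 kb of the gene, the 3′ UTR class held 11 of 27 plus-strand peaks and 0 of 26 minus-strand ones, where 21 were classed as exon.

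**Figure D2:**
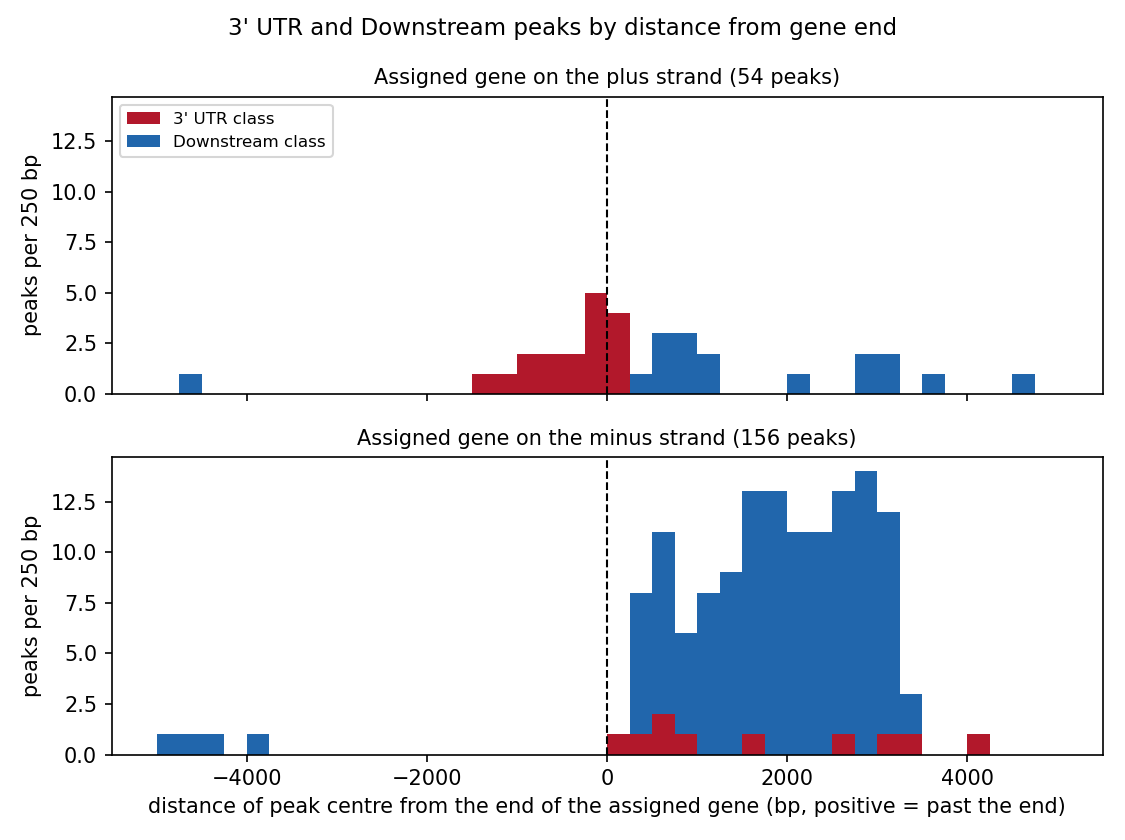
Distance of the peak centre from the end of the assigned gene (bp, positive values past the end) in 250 bp bins, for plus-strand genes (top) and minus-strand genes (bottom), coloured by class. The 172 peaks within 5 kb of the end are drawn, 33 lie farther on the gene's side and 5 farther past it. Downstream peaks fill the flank of minus-strand genes. Of the 41 peaks of the 3′ UTR class, 19 overlap an assigned gene on the plus strand and 1 an assigned gene on the minus strand.

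For 150 of the 210 peaks the class described the gene to which the table assigned the peak, and for 60 it did not. A Downstream peak was counted as describing its gene when the gap to the gene end lay in the stated kb. A 3′ UTR peak was counted when it overlapped the gene at any point, near its end or not. The share was 71.4% (64.8 to 77.4), made up of 130 of 169 Downstream peaks (76.9%) and 20 of 41 in 3′ UTRs (48.8%). On minus-strand genes 124 of 146 Downstream peaks met the condition, and on plus-strand genes 6 of 23. By peak centre, 159 of all 210 lay past the end of the assigned gene (75.7%), 15 inside it (7.14%) and 36 upstream of its start (17.1%). For the 36 upstream peaks the class cannot refer to the gene they are assigned to, while the GO function in the table is that of the assigned gene. All 210 lay at least 3013 bp from the start of the assigned gene.

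For 9 of the 60 another gene in the list met the class. All 6 genes that met a Downstream class were on the minus strand and all 3 that met a 3′ UTR class were on the plus strand. A peak at 15352777 to 15353306 of chromosome 11 (Downstream, 2 to 3 kb) was assigned to the histone deacetylase gene MELO3C013472.2, 6093 bp upstream of its start. It lay 2422 bp past the end of MELO3C035011.2, a minus-strand transaminase gene. A peak at 18515 to 18888 of chromosome 11 (Downstream, 1 to 2 kb) lay 2612 bp past the end of the plus-strand beta-galactosidase gene MELO3C023188.2, its assigned gene. It lay 1029 bp past that of MELO3C023189.2, a minus-strand gene annotated as a kinase regulator of the Mediator complex, which links transcription factors to RNA polymerase. The 3′ UTR peak at 19049371 to 19049988 of chromosome 5 was assigned to MELO3C008774.2, a TFIIH (general transcription and repair factor) gene 4315 bp away. It covered the end of MELO3C008773.2, a plus-strand gene of mitochondrial complex II assembly. For the other 51 peaks the list held no gene that met the class, and genes without an assigned peak are not in it.

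Several 3′ UTR peaks sat directly on the gene's end. MELO3C016951.2 on chromosome 7, a glutathione peroxidase gene (removal of peroxides), ended at 901407 within a peak at 901281 to 901715. MELO3C026919.2 on chromosome 11, a gene of ATP-dependent protein refolding, ended at 28598151 within a peak at 28598123 to 28598442. MELO3C023359.2, an arginine decarboxylase gene (polyamine synthesis), was the minus-strand case, with its end at 2067288 of chromosome 11 and a peak at 2067043 to 2067475. These peaks had their centre just outside the gene, as did those of MELO3C019078.2 and MELO3C020875.2, which have no GO term. With the centre just inside, peaks covered the ends of MELO3C005067.2 (dihydroorotate dehydrogenase, pyrimidine synthesis, chromosome 9), MELO3C002171.2 (transmembrane transport, chromosome 12), MELO3C006947.2 (an ATPase, chromosome 6) and MELO3C023603.2 (a flavin oxidoreductase, chromosome 1). The peak of the membrane protein gene MELO3C014001.2 on chromosome 6 stopped 44 bp short of the end. All of these lay more than 3 kb from the gene start, as the class requires, in genes of 3312 to 10517 bp.

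The closest Downstream peaks began close to the gene end. MELO3C003603.2 on chromosome 4, which encodes a gamma-glutamylcyclotransferase (glutathione breakdown), had its peak 59 bp past the end. MELO3C007754.2 on chromosome 8, a transmembrane transport gene, had one at 101 bp, and the exocyst gene MELO3C006082.2 on chromosome 6 (docking of secretory vesicles) one at 130 bp. All 3 are minus-strand genes and their class described them. The nearest plus-strand case whose class held was MELO3C019494.2 on chromosome 6, a gene for a sequence-specific DNA-binding transcription factor, with its peak 278 bp past the end. MELO3C016085.2 on chromosome 7, a plus-strand zinc-binding ligase gene, had a peak 44 bp past its end that was classed at 2 to 3 kb. The minus-strand gene MELO3C016086.2 met that class, with its end 2616 bp away on the other side.

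Genes of transcription were the largest of the 16 functional groups among the peaks' genes, as they were in the whole list. The 210 peaks named 209 genes, of which 180 carry a GO term, and 21 of the 180 were in the group for transcription and DNA binding. That is 11.7% (7.37 to 17.3), beside 266 of all 3406 annotated genes in the list, or 7.81%. The class described the assigned gene for 13 of the 21. MELO3C021929.2 on chromosome 11, a nuclear DNA-binding transcription regulator, had its peak 881 bp past the end and a second peak 1855 bp upstream of its start. MELO3C025282.2 on chromosome 8, another regulator of transcription, had one 1636 bp past the end. MELO3C005284.2 on chromosome 9, at 1045 bp, entered the group by an RNA-templated transcription term and encodes an RNA-dependent RNA polymerase, an enzyme of gene silencing. No group was tested against the rest of the list, and a gene can be in several.

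Hormone genes numbered 7 of 180 (3.89%, 1.58 to 7.85), beside 81 of 3406 (2.38%), and the class described the assigned gene in 4. The cytokinin dehydrogenase gene MELO3C015478.2 on chromosome 2, whose product breaks down cytokinin, had a peak at 2081580 to 2081888, 559 bp past its end. MELO3C014230.2 on chromosome 8, a transporter gene of ethylene signalling, had one 1280 bp past its end. Both are minus-strand genes. The class did not describe the other 2 hormone genes chosen by distance. The ACC oxidase gene MELO3C007425.2 on chromosome 8, for the last step of ethylene synthesis, had a peak classed at under 1 kb that lay 2057 bp past its end. MELO3C007122.2 on the same chromosome, of cytokinin signalling, had a peak classed 3′ UTR that lay 1309 bp past its end. The group for ageing and ripening held 0 of the 180 genes, which allows a share of up to 2.03% by the exact interval, beside 17 of 3406 (0.499%).

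Protein kinase genes numbered 9 of 180 (5.0%, 2.31 to 9.28), beside 5.23% of the whole list. MELO3C008436.2 on chromosome 3, with kinase, calcium and polysaccharide binding terms, had its peak 543 bp past the end. MELO3C025227.2 on chromosome 8 had one at 701 bp and MELO3C002661.2 on chromosome 12 one at 1155 bp. MELO3C019257.2 on chromosome 11 had one at 1068 bp. It entered the group by a cyclin-dependent kinase activity term, beside DNA replication, chloroplast and cell cycle terms. All those named here were minus-strand genes described by their class. In the whole kinase group the class described the assigned gene for 6 of the 9.

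Genes of the cell wall, sugars and lipids made up 6, 9 and 6 of the 180, and the class described the assigned gene in 3, 4 and 5 of them. The shares were 3.33% for the cell wall beside 2.06% of the whole list, 5.0% beside 3.02% for sugar and starch, and 3.33% beside 3.17% for lipids, terpenes and carotenoids. In the first group, the polygalacturonase gene MELO3C000134.2 on chr0 (pectin breakdown) had a peak 1817 bp past its end. A galacturonosyltransferase gene of pectin synthesis, MELO3C020733.2 on chromosome 8, had one at 2195 bp, and the pectinesterase inhibitor gene MELO3C030064.2 on chromosome 3 one at 2472 bp. That last gene is 542 bp long, so the peak lay 3013 bp from its start, the shortest distance among the 210. Its flank closer than that falls in the promoter class by rule. In the sugar group, the glycosidase genes MELO3C032375.2 on chromosome 7 and MELO3C021895.2 on chromosome 11 had peaks at 1861 and 2699 bp. The peak of MELO3C021895.2, a plus-strand gene, also lay 2412 bp past the end of the minus-strand gene MELO3C021894.2. Its class holds for both genes. In the lipid group, the carboxylic ester hydrolase gene MELO3C017498.2 on chromosome 2 had one at 767 bp and the phospholipase C gene MELO3C020545.2 on chromosome 12 one at 1062 bp. The lipid hydrolase gene MELO3C029940.2 on chromosome 3 had one at 2325 bp. MELO3C029119.2 on chromosome 1, for 1-deoxy-D-xylulose-5-phosphate synthase, the entry step of plastid terpenoid synthesis, had one at 2669 bp.

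Redox, transport and stress genes were also among those assigned. Redox and heme genes numbered 15 of 180 (8.33% beside 7.19%), membrane transport genes 11 (6.11% beside 5.40%) and defense and stress genes 4 (2.22% beside 3.20%). Besides MELO3C016951.2, a further glutathione peroxidase gene, MELO3C014348.2 on chromosome 5, had a peak 1015 bp past its end. The calmodulin-binding defense gene MELO3C005044.2 on chromosome 12 had one at 1175 bp and the stress-response hydrolase gene MELO3C017246.2 on chromosome 2 one at 1382 bp. The amino acid transporter gene MELO3C003337.2 on chromosome 4, on the plus strand, had one at 576 bp.

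Plastid, RNA, translation, chromatin, traffic and ubiquitin genes were each represented by 3 to 8 genes. For photosynthesis and chloroplast the count was 5 (2.78% beside 3.52%), and the gene of the photosystem II oxygen-evolving complex MELO3C023682.2 on chromosome 1 had its peak 361 bp past the end. The plastoglobule genes MELO3C009475.2 on chromosome 4 and MELO3C020171.2 on chromosome 10 (lipid bodies of plastids) had theirs at 1233 and 1873 bp. RNA genes numbered 8 (4.44% beside 5.37%), among them MELO3C026663.2 on chromosome 4 of the RNA exosome (RNA degradation) at 2225 bp. The RNA methyltransferase genes MELO3C017082.2 and MELO3C009837.2 had peaks 419 and 533 bp past their ends, and in neither did the class describe them. For translation there were 4 (2.22% beside 3.76%), with ribosomal protein genes MELO3C027143.2 on chr0 at 787 bp and MELO3C014296.2 on chromosome 5 at 1509 bp. The initiation factor gene MELO3C025488.2 on chromosome 9 had a 3′ UTR peak that stopped 283 bp short of its end. For DNA repair, replication and chromatin there were 4 (2.22% beside 2.67%), with the repair dioxygenase gene MELO3C025799.2 on chromosome 4 at 345 bp and the histone acetyltransferase complex gene MELO3C014846.2 on chromosome 6 at 1485 bp. Vesicle and protein traffic held 3 (1.67% beside 2.47%), with the intracellular protein transport gene MELO3C028917.2 on chromosome 1 at 1951 bp. The ubiquitin group held 3 (1.67% beside 1.76%). Its proteasome core gene MELO3C026800.2 on chromosome 8 had a 3′ UTR peak that stopped 116 bp short of the end. In it, the ubiquitin ligase gene MELO3C026526.2 on chromosome 3 had a Downstream peak 653 bp past its end, which also lay 641 bp past the end of the minus-strand ubiquitin transferase gene MELO3C026527.2. The pair converges on the peak, so the class holds for both. The other 84 annotated genes were in none of the 16 groups.

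**Figure D3:**
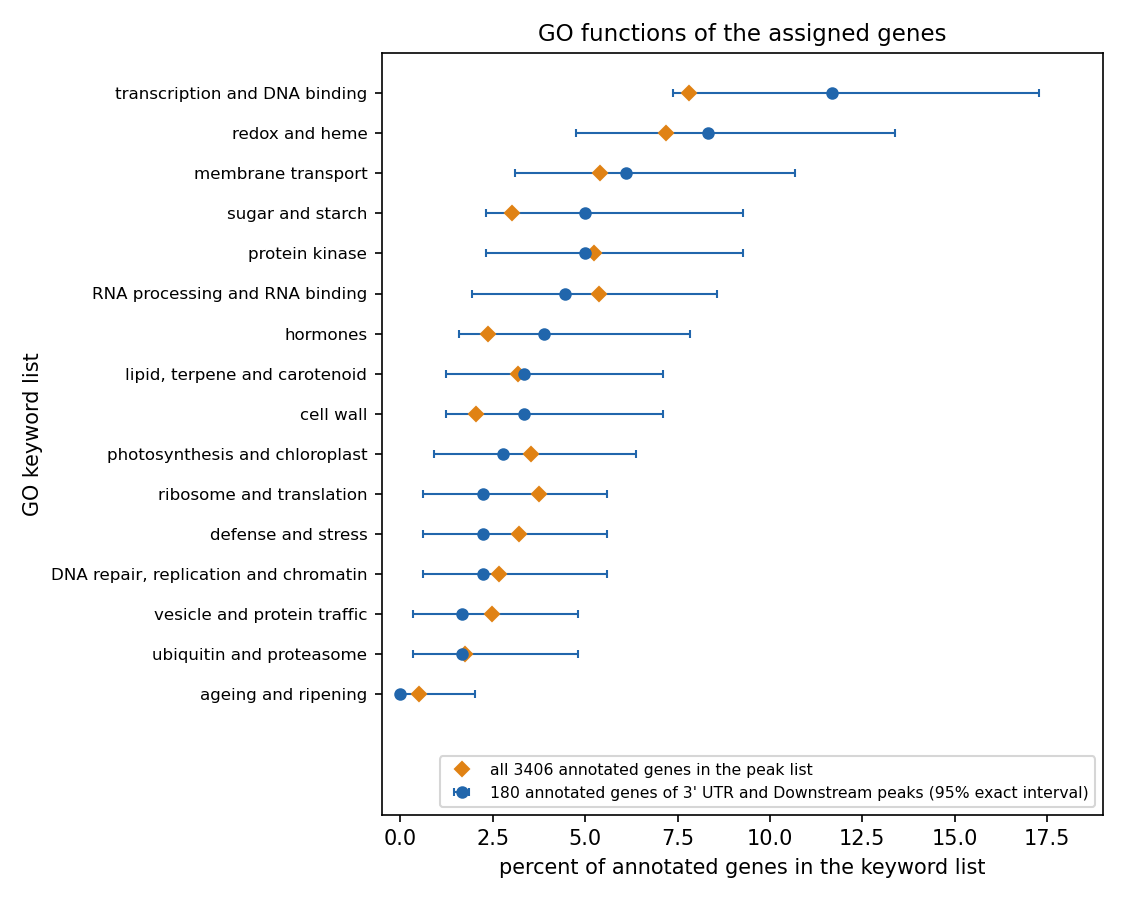
Percent of annotated genes in each of the 16 keyword groups of GO terms, for the 180 annotated genes of 3′ UTR and Downstream peaks (circles, 95% exact intervals) and for all 3406 annotated genes of the peak list (diamonds). The diamond lies within the interval of the circle in every group, and the transcription group has the highest share, 11.7% beside 7.81%.

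Widths were not shown to differ from those of the other peaks. The narrowest was 299 bp, the widest 1361 bp and the median 418.5 bp, beside a median of 422 bp for the other 5283. The class medians were 435 bp in 3′ UTRs and 394.5, 430 and 401.5 bp for the Downstream peaks under 1 kb, at 1 to 2 kb and at 2 to 3 kb. Of the 210 peaks 104 were at least as wide as the median of all peaks, or 49.5% (42.6 to 56.5), against 50.4% of the others (odds ratio 0.965, Fisher's exact test, two-sided, p = 0.83, adjusted p = 0.83 over 5 comparisons).

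The widest was set apart from the rest. It measured 1361 bp, at 13153894 to 13155254 of chromosome 10, and began 2806 bp past the end of the transporter gene MELO3C034180.2. The next was 811 bp wide, 1655 bp past the end of the transcription factor gene MELO3C015633.2 on chromosome 2. After it came those of the membrane protein gene MELO3C034484.2 on chromosome 10 (801 bp), the oxidoreductase gene MELO3C025330.2 on chromosome 2 (788 bp) and the plastid ATP synthase gene MELO3C001566.2 on chromosome 10 (763 bp). The peak of MELO3C025330.2 was classed 3′ UTR but ended 8383 bp before the end of that 13131 bp gene. The others among the 10 widest belonged to MELO3C021895.2 (738 bp), the heme monooxygenase gene MELO3C005601.2 on chromosome 9 (717 bp, starting 251 bp past the end) and the ATPase gene MELO3C002188.2 on chromosome 12 (695 bp). The transcription factor gene MELO3C019312.2 on chromosome 11 and MELO3C007122.2 each had one of 680 bp.

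**Figure D4:**
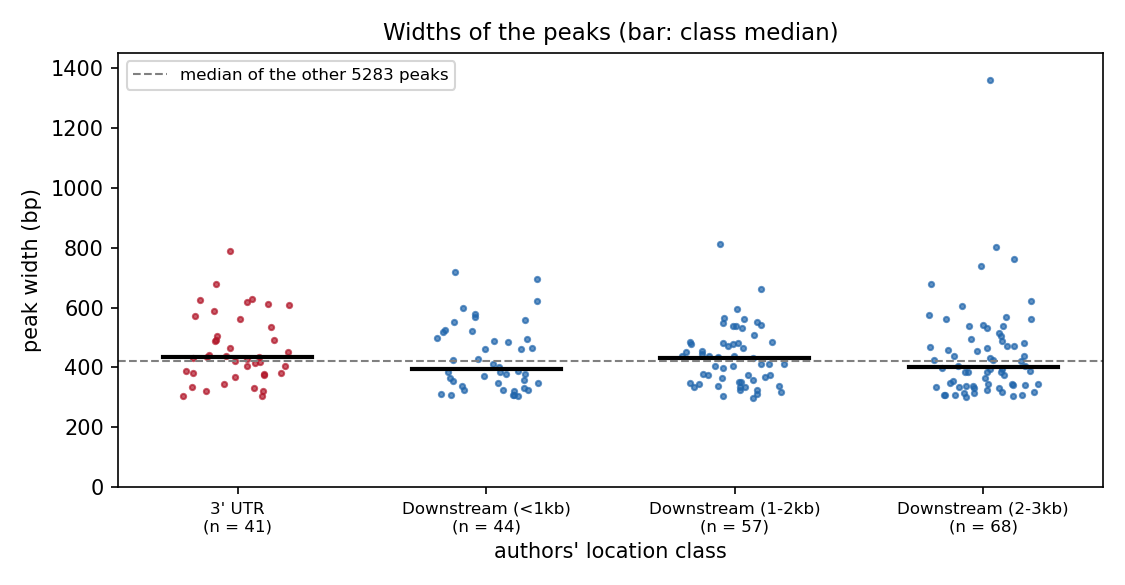
Width in bp of each of the 210 peaks by the authors' location class, with the class median as a bar and the median of the other 5283 peaks as a dashed line. The 4 class medians lie between 394.5 and 435 bp, near the 422 bp of the other peaks, and 1 Downstream peak at 2 to 3 kb reaches 1361 bp.

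The peaks were found on all 12 numbered chromosomes. They were somewhat more frequent at the ends than the other listed peaks pooled. Numbers ran from 10 of 436 peaks on chromosome 5 (2.29%, 1.11 to 4.18) to 19 of 330 on chromosome 9 (5.76%, 3.50 to 8.85), and chr0 had 3 of 154. Chromosome length was taken as the span to the last listed peak. In the outer 20% lay 66 of 207 peaks on numbered chromosomes, or 31.9% (25.6 to 38.7), against 24.6% of the other peaks (odds ratio 1.43, Fisher's exact test, two-sided, p = 0.022, adjusted p = 0.036 over 5 comparisons). Among assigned genes of at least 3 kb the shares were 29.7% and 30.0% (odds ratio 0.989, Fisher's exact adjusted p = 1). Against the other peaks with their centre within 3 kb past a gene end the shares were 31.9% and 27.8% (odds ratio 1.21, Fisher's exact adjusted p = 0.50). The contrast was largest against distal intergenic peaks, of which 11.5% lay in the outer 20% (odds ratio 3.62, Fisher's exact adjusted p = 9.46e-13). No comparison was made with the other classes without the distal intergenic peaks.

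**Figure D5:**
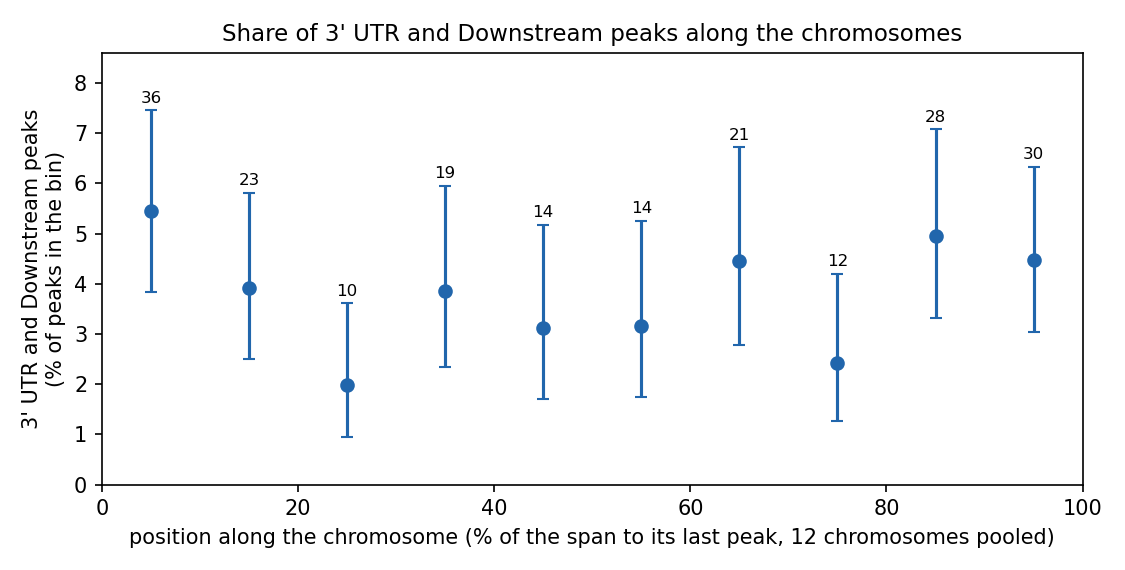
Share of 3′ UTR and Downstream peaks among all peaks in each 10% step of the chromosome span, 12 numbered chromosomes pooled, with 95% exact intervals and the number of such peaks above each point. The first step has 5.45% (36 peaks), the last 4.48% (30 peaks) and the step from 20 to 30% has 1.98% (10 peaks), and the intervals of all neighbouring steps overlap.

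The genes assigned to the 210 peaks had a GO term more often than those of other peaks pooled, and a further peak less often. A GO term was attached in 181 of 210 cases, or 86.2% (80.8 to 90.6), against 74.3% (odds ratio 2.16, Fisher's exact test, two-sided, p = 4.69e-05, adjusted p = 0.000234 over 5 comparisons). A gene with a further listed peak was assigned in 48 cases, or 22.9% (17.4 to 29.1), against 30.7% (odds ratio 0.670, by the same exact test p = 0.017 and, adjusted, p = 0.036). Against the other peaks with their centre within 3 kb past a gene end, the share with a further peak turned to 22.9% beside 21.9% (odds ratio 1.06, Fisher's exact adjusted p = 0.84). Those 406 peaks had assigned genes of a median 997.5 bp. Their GO share was 67.5% (odds ratio 3.01, Fisher's exact adjusted p = 1.28e-06). Against distal intergenic peaks the share with a further peak was 22.9% beside 40.9% (odds ratio 0.429, Fisher's exact adjusted p = 7.30e-07). The GO share of distal intergenic peaks was 68.3% (odds ratio 2.90, Fisher's exact adjusted p = 6.19e-08). No comparison was made with the other classes without the distal intergenic peaks. With genes limited to at least 3 kb, the GO share was higher both for the 210 and for the other peaks. The share with a further peak was higher for the 210 only, and for the other peaks it was 29.7% beside 30.7%. The assigned genes had a median length of 3296 bp (quartiles 1915.5 and 4754.5), against 2577 bp (799 and 5157) for the other peaks. By the class rule, a peak within 3 kb past the end of a short gene can fall in the promoter class instead. The part of gene length in both results was not tested beyond the split that follows. Among genes of at least 3 kb the GO shares were 92.0% and 90.3% (odds ratio 1.23, Fisher's exact adjusted p = 0.83) and the shares with a further peak 29.5% and 29.7% (odds ratio 0.990, Fisher's exact adjusted p = 1). Another peak lay within 5 kb of 32 of the 210 (15.2%, 10.7 to 20.8), against 17.1% of the others (odds ratio 0.872, by the same exact test p = 0.57 and, adjusted, p = 0.72).

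In 47 of the 209 genes the list held further peaks, 61 in all, of which 25 in 23 genes were in the promoter class. In 10 genes the promoter-class peak lay upstream of the gene start. MELO3C035534.2 on chromosome 12, an ATP-binding protein gene, had one 645 bp upstream and its Downstream peak 1744 bp past the end. The membrane protein gene MELO3C016813.2 on chromosome 7 had one 583 bp upstream and a 3′ UTR peak ending 366 bp before the gene's end. In MELO3C019488.2 on chromosome 6, for a microtubule-severing ATPase, a promoter-class peak covered the start and the 3′ UTR peak ended 846 bp before the end. The aminotransferase gene MELO3C003577.2 on chromosome 4 and the protein refolding gene MELO3C026919.2 had promoter-class peaks inside the gene, 248 and 648 bp from the start. MELO3C013184.2 on chromosome 1, a membrane protein gene, was the single gene with 2 peaks of the class, 1756 and 2590 bp past its end and 451 and 309 bp wide.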

How the data were processed

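Melon genomic DNA was used for DAP-seq libraries, of which 2 had CmNOR fused to MBP-His and 2 had only that tag, with a NEXTflex kit and a PCR-amplified library variant, per the labels' protocols. MACS2 and deepTools were used, per the submitters' processing notes. The sources used here do not give their settings, the aligner, build or annotation, or how libraries were combined. A looser threshold or a rule keeping peaks of 1 library would lengthen the list. The authors deposited positions, widths and distances in bp, an assigned gene, a location class and GO terms.

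On checking, width and distance were recomputed exactly in all 5493 rows. Gene ends were taken from the gene's coordinates and strand. Of 4510 gene identifiers 0 matched RefSeq (USDA_Cmelo_AY_1.0), so functions are GO terms. Comparisons used Fisher's exact test with Benjamini-Hochberg adjustment, and shares carry 95% Clopper-Pearson intervals. The exact test alone, without the adjustment, was tried on simulated data with groups of 210 and 5283 peaks. The smaller sets were not simulated. The peaks, keyword lists and tests were chosen with earlier results of these data known. Named genes were the 10 widest peaks, the 5 centres nearest the gene end on either side, up to 4 genes per list by distance to the end, genes with several such peaks, and 5 with promoter peaks. MELO3C016085.2, MELO3C008774.2 and the neighbouring genes were chosen with their values in view. Alternatives were each class alone, other comparison peaks, other limits, chr0 left out and genes of at least 3 kb. Tests ran in scipy 1.17.1 under Python 3.11.15, tables in pandas 2.3.3 with numpy 2.4.6, and plots in matplotlib 3.10.9.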

Additional observations from a re-analysis of the deposited data

How the results depend on the processing

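Of 48 alternatives over 8 tested results, 31 kept direction and side of the threshold, 10 lost the call and 7 changed direction, none of these 7 passing the adjusted test. The other 4 alternatives belong to 2 untested shares and stayed within their exact intervals. Genes of at least 3 kb, peaks whose class described the assigned gene, and all alternatives to strand were chosen after seeing the data. Values are odds ratios. Width (0.965) was 1.26 in 3′ UTRs alone, 1.05 against distal intergenic peaks and 1.04 where the class described the gene. Neighbours within 5 kb (0.872) gave 1.56 in 3′ UTRs alone and 1.04 in genes of at least 3 kb. The outer 20% (1.43) gave 1.28 for Downstream alone, 1.21 against other peaks past gene ends, 1.31 for the outer 10%, 1.44 where the class described the gene and 0.989 in genes of at least 3 kb, all without a call. Genes with a further peak (0.670) gave 0.829 in 3′ UTRs alone, 1.06 against other peaks past gene ends, 0.767 where the class described the gene and 0.990 in genes of at least 3 kb, all without a call. The GO share (2.16) gave 2.02 in 3′ UTRs alone and 1.23 in genes of at least 3 kb, without a call. The strand share of the 3′ UTR class (0.343) was 0.506 against other peaks past gene ends, without a call, and that of the Downstream class stayed between 6.55 and 9.96. The Downstream share between strands (70.2) was 210 in genes of at least 3 kb, 51.6 by peak centre and 66.7 without chr0. The cause of these changes was not tested, except that 3′ UTRs alone leave 41 peaks. No paired analysis was possible because no value belongs to 1 library.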
